A study of Chlorocebus sabaeus with 3 samples.

Results

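Trophoblast is the outer cell layer of the placenta, the tissue through which a fetus is fed and by which the pregnancy signals to the mother. Its inner cytotrophoblast cells divide, fuse into the syncytiotrophoblast that bathes in maternal blood, or move into the uterine wall as extravillous trophoblast. Fusion is driven in primates by envelope proteins of retroviruses that settled in the genome, under the transcription factor GCM1. The 10 genes described here span these steps: the transcription factors GATA3, TFAP2C and GCM1, the fusion-related envelope gene ERVV-2, the proteases HTRA4, PAPPA and PAPPA2, the secreted signals PGF and KISS1, and PLAC8. They were taken by name from the 33994 genes listed, and all 10 had a row in each library.

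Amniotic fluid of vervet monkeys (Chlorocebus sabaeus), an African Old World monkey, was the source of the RNA, which was taken from the supernatant as cell-free RNA and amplified into cDNA before sequencing. There were 3 libraries, 1 for each status: a stillborn whose sex is given as M, a spontaneous abortion with sex NA, and an alive animal with sex F. No genotype, treatment or gestational age was given. With 1 library per status the differences below have no replicate check, no p-value is given, and every comparison sets library against library. The values were RPKM, a level per gene length and per assigned reads of the library. Whole reads were recovered from them. Series of 3 values below follow the order stillborn, spontaneous abortion, alive, and in that order the totals were 17749954, 29926352 and 20220899 assigned reads. Intervals in the text are exact 95% intervals of these reads and cover counting error only. A shortage of cells of a type and a shortage of RNA per cell cannot be told apart in such fluid, and neither can be told apart from sex or from the individual pregnancy.

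The 10 genes lay at very different levels. GATA3, HTRA4 and TFAP2C together held 93.6%, 97.7% and 98.2% of the members' summed RPKM. That sum was 68.0, 81.2 and 66.8, or 0.0156%, 0.0213% and 0.0168% of all RPKM. ERVV-2 passed RPKM 1 in the stillborn library only, and the other 6 genes stayed below RPKM 1 in every library. Of the 10 genes, 8, 10 and 7 were above 0. The spontaneous abortion library, which was also the deepest, held the highest RPKM of 7 members, the stillborn of 3 and the alive of 0. Among all 23276 genes above 0, these shares were 32.6% for spontaneous abortion, 30.2% for stillborn and 37.2% for alive. Of the 7 members, GCM1 and KISS1 had 5 and 3 reads in the spontaneous abortion library and 0 in the others. HTRA4 was almost level, at 13.5, 13.6 and 13.5, and after the scaling described below it was highest in the stillborn library.

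**Figure D1:**
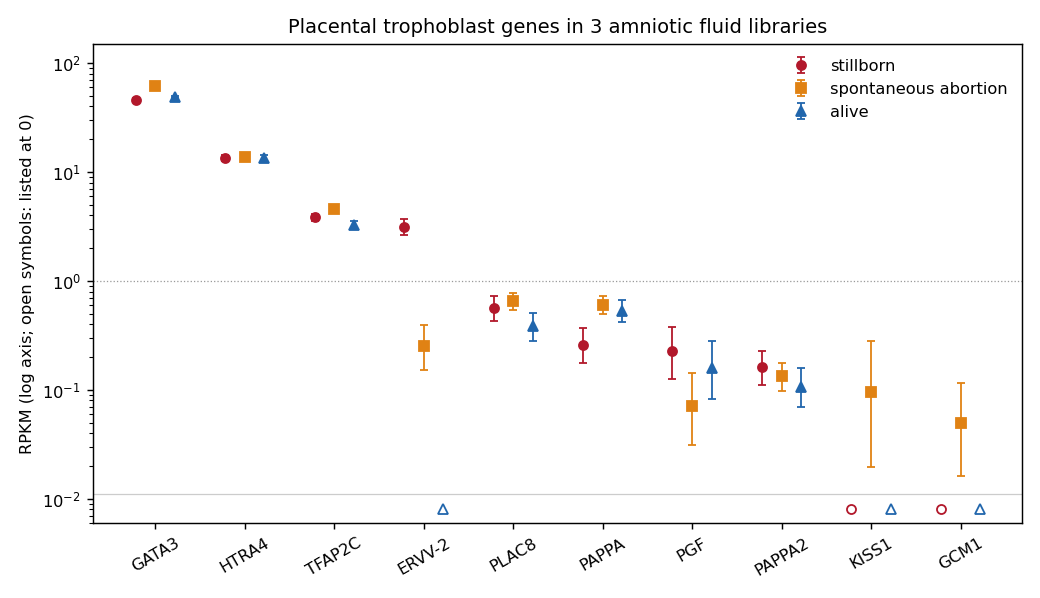
RPKM (log axis) of the 10 trophoblast genes by library (stillborn, spontaneous abortion, alive), with exact 95% counting intervals as bars and open symbols for genes listed at 0. GATA3, HTRA4 and TFAP2C sit above RPKM 1 in all 3 libraries, and ERVV-2 runs from 3.13 in the stillborn library to 0 in the alive library.

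The label was checked against markers that define trophoblast. Of 10 such genes, 4 were matched to a row. CGA, the alpha chain of chorionic gonadotropin, and PAGE4 were listed at 0 in all 3 libraries. So was CYP19A1, the placental aromatase, under the name LOC103245629. A count of 0 allows up to 3 reads in each library. ERVFRD-1, the envelope gene syncytin-2, was present at RPKM 7.64, 4.76 and 5.18. The summed level of the list is thus that of ERVFRD-1. The members are called trophoblast genes here by their known roles, since most of the markers matched were at 0. GATA3 and the AP-2 factors are also known from amnion and from stratified epithelium, and PLAC8 from leukocytes.

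The members were then compared between libraries on their reads, scaled by the trimmed mean of M-values (TMM), with factors of 0.937, 1.02 and 1.05 on the totals. A gene was counted as apart when it differed at least 4-fold, its interval excluded 1 and the higher library held at least 30 reads. In stillborn over alive, 7 members reached 30 reads and 1, ERVV-2, was apart as higher, against 7.94% of the 13498 genes with that depth, 4.71% higher and 3.23% lower. In spontaneous abortion over alive, 6 members reached 30 reads and 0 were apart, against a background of 3.81%, with 2.3% higher and 1.51% lower. In stillborn over spontaneous abortion, 1 of 7 was apart as higher, again ERVV-2, against 4.46%, with 2.81% higher and 1.65% lower. With 7 members, 1 call is too few to set against these shares.

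By the looser rule that the counting interval excludes 1 at any fold, 6 of 8 members with reads differed between the stillborn and alive libraries, 5 higher and 1, PAPPA, lower. The background was 55.2% of 21581 genes, 28.4% higher and 26.9% lower. For spontaneous abortion over alive 4 of 10 differed, all higher, against 48.4% of genes, 24.5% higher and 23.8% lower. For stillborn over spontaneous abortion 2 of 10 were higher and 2 lower, against 48%, of which 23.7% were higher and 24.2% lower. The members higher than alive in both losses were GATA3, TFAP2C, PLAC8 and ERVV-2, except that with totals in place of TMM the stillborn ratio of GATA3 was below 1 and the interval of that of PLAC8 held 1. Both comparisons share the alive library. The share of all genes higher in both is not given here, so the overlap is not read as a trait of the members.

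With a pseudocount of 0.1 RPKM added after TMM scaling, which understates ratios of low genes, the median log2 ratio over the 10 members was 0.28 for stillborn over alive, with 0 over all genes. It was 0.45 for spontaneous abortion over alive, with 0.02 over all genes, and -0.11 between the losses, with -0.02. Taken from the ratios of reads, with genes at 0 reads in a library at their bound, the medians were 0.54 over 8 members, 0.35 over 9 and 0.01 over 8. Without ERVV-2 they were 0.40 over 7 members, 0.28 over 8 and -0.09 over 7.

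**Figure D2:**
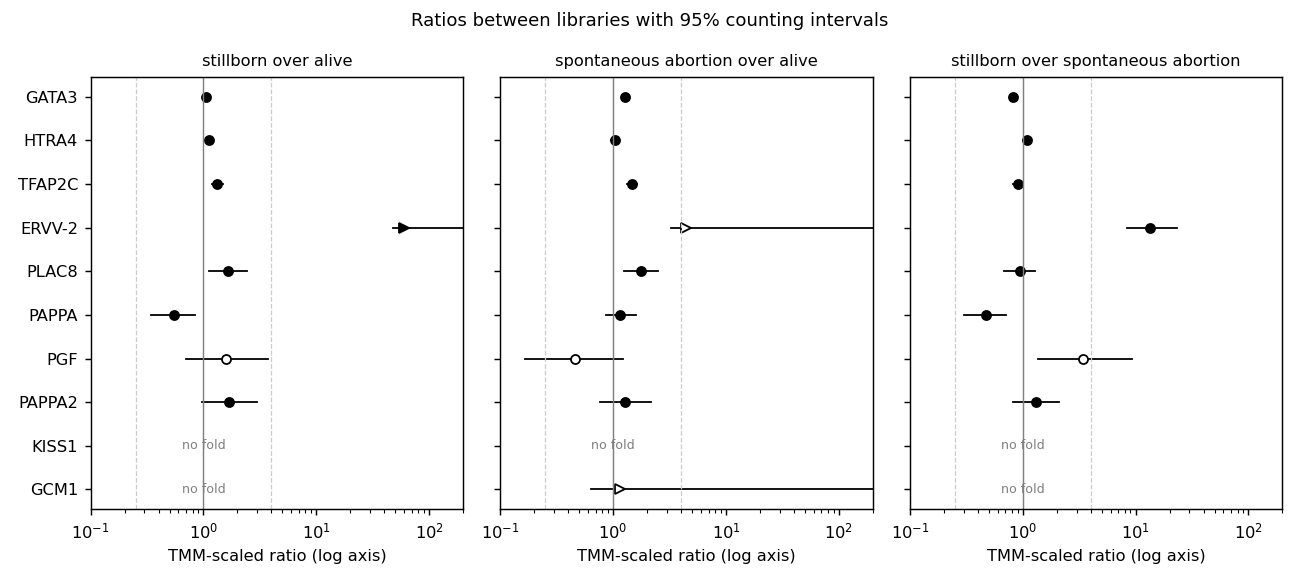
TMM-scaled ratios (log axis) of the members in the 3 pairs of libraries, with exact 95% counting intervals as lines and dashed lines at 4-fold. Filled symbols have at least 30 reads in the higher library, triangles are bounds against 3 reads, and "no fold" marks pairs at or near the floor. ERVV-2 alone lies beyond 4-fold with a filled symbol, at 59.5 for stillborn over alive and 13.5 for stillborn over spontaneous abortion.

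**Figure D3:**
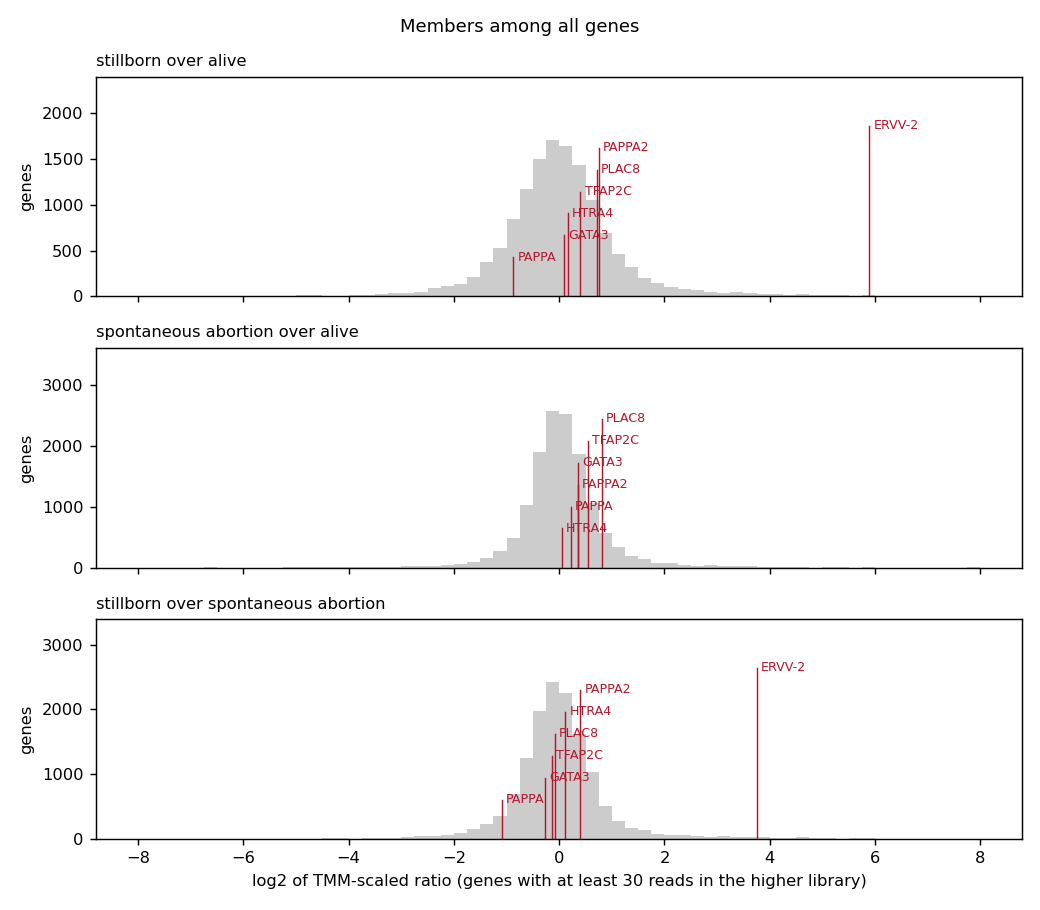
Number of genes by log2 of the TMM-scaled ratio in the 3 pairs, over genes with at least 30 reads in the higher library, with the members that reach this depth marked as lines whose heights carry no value. ERVV-2 is marked at 5.89 and 3.76, and all other marked members lie between -1.09 and 0.81.

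GATA3, a zinc finger factor that sets the trophoblast fate in early embryos and also acts in skin and T cells, was the most abundant member. Its RPKM was 46.3 in the stillborn library, from 6273 reads, against 61.1 for spontaneous abortion, from 13947, and 48.8 for alive, from 7535. It stood above 95.5%, 96.8% and 95.3% of the genes present. The spontaneous abortion library was highest. For spontaneous abortion over alive the scaled ratio of GATA3 was 1.29 (1.25 to 1.32). For stillborn over alive it was 1.06 (1.03 to 1.10), but with totals in place of TMM this ratio was below 1, at 0.948 (0.917 to 0.981). Between the losses the stillborn library was 1.21-fold lower (1.18 to 1.25).

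TFAP2C, the AP-2 gamma factor of trophoblast stem cells and germ cells, followed the order spontaneous abortion, stillborn, alive. Its RPKM was 3.84, 4.61 and 3.25, from 601, 1217 and 579 reads. The alive library was lowest. The scaled ratio over alive was 1.32 for stillborn (1.18 to 1.48) and 1.46 for spontaneous abortion (1.32 to 1.61). GCM1, the factor that starts syncytial fusion, was near the limit of detection. It was listed at 0 in the stillborn and alive libraries and at RPKM 0.0495 (0.0161 to 0.116) in the spontaneous abortion, from 5 reads. The alive library would have shown 3 reads at RPKM 0.0439 and the stillborn at 0.0501, so a difference in GCM1 was not detectable at this depth.

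Relatives of these factors were measured alongside. TFAP2A, the AP-2 alpha factor of skin and trophoblast, was at RPKM 18.7, 24.0 and 26.3, 1.26-fold lower in the stillborn than in the alive library (1.20 to 1.31), opposite to TFAP2C. TFAP2B was at 2.53, 2.64 and 2.59, with intervals that held 1 in all 3 pairs. GATA6, an endoderm and heart factor, was at 7.74, 8.70 and 7.04. GATA4, its relative in the same tissues, was at 0.136, 0.722 and 0.453, which put the stillborn library 4.87-fold below that of the spontaneous abortion (3.41 to 7.16). GATA2, which acts with GATA3 in trophoblast and in blood progenitors, was at 0.0317, 0.0611 and 0.00464, from 12, 39 and 2 reads, and its ratio of spontaneous abortion over alive, which rests on those 2 alive reads, was 13.5 (3.51 to 116). TFAP2D, GATA1 and GCM2 were at 0 throughout.

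ERVV-2, an envelope gene of an endogenous retrovirus kept in primates and expressed in placenta, had the largest ratios of the members. The stillborn library held it at RPKM 3.13 (2.63 to 3.69, 140 reads), that of the spontaneous abortion at 0.252 (0.152 to 0.393, 19 reads) and the alive library at 0. The stillborn library stood above both others, and the counting intervals of the 3 libraries did not overlap. With the alive library set to the floor of 3 reads, the stillborn library was 59.5-fold higher, and the exact interval of the ratio, which takes the 0 as counted, starts at 47.7. Between the losses the ratio was 13.5 (8.34 to 23.1), stillborn being the higher. For spontaneous abortion over alive it was 4.40 against the same floor, with an interval starting at 3.24, from fewer than 30 reads.

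Among the 13498 genes with at least 30 reads in the stillborn or alive library, ERVV-2 had the 30th highest ratio when its 0 alive reads were set to 3, a rank that depends on this floor. It was 132nd of 13858 for stillborn over spontaneous abortion. Its neighbours on the chromosome in the RefSeq table did not follow it: ZNF160, a zinc finger gene, was at RPKM 2.08, 2.52 and 2.56, and the pseudogene LOC103235188 was at 0.154, 0.110 and 0.162. Reads of ERVV-2 could be shared with close copies such as ERVV-1, which was not matched to a row here.

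Other genes listed with fusion, which are envelope genes and receptors, did not separate in this way. ERVFRD-1 was 1.65-fold higher in the stillborn than in the alive library (1.43 to 1.90) and at a ratio of 0.945 for spontaneous abortion over alive (0.821 to 1.09). ERVMER34-1, another envelope gene of retroviral origin, was at RPKM 9.77, 7.38 and 7.60, 1.44-fold higher in the stillborn than in the alive library (1.32 to 1.57). SLC1A5, the amino acid carrier known as a receptor of syncytin-1, was at 8.86, 8.52 and 9.22. MFSD2A, the receptor of syncytin-2, had 2, 9 and 0 reads. The other 3 were the genes of this list at 30 reads, and 0 of them were apart in any pair, beside the 7.94%, 3.81% and 4.46% over all genes.

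HTRA4, a secreted serine protease made chiefly by placenta and raised in preeclampsia in humans, was the flattest member. It was at RPKM 13.5, 13.6 and 13.5, from 922, 1565 and 1048 reads, above 86.8%, 87.0% and 85.5% of the genes present. Its spread over the libraries was 0.468% of its mean, less than the 2.99% that counting error alone gives for these reads. Only 0.0196% of the 10229 genes at a mean RPKM of 1 or more were flatter. After TMM scaling its spread was 5.90% of the mean and 5.84% of these genes were flatter, so the evenness depends on the scale. The scaled ratio over alive was 1.12 for stillborn (1.02 to 1.23) and 1.04 for spontaneous abortion (0.958 to 1.12). With totals in place of TMM the former was 1.002 and its interval held 1 (0.916 to 1.10). In the RefSeq table HTRA4 overlaps TM2D2, a membrane protein gene, which was at RPKM 5.03, 5.69 and 6.03; whether reads were shared between them was not tested. Of its family, the matrix protease HTRA1 was at 6.45, 7.06 and 7.40, the mitochondrial HTRA2 at 4.77, 3.88 and 3.51, and HTRA3 had 0, 3 and 0 reads.

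The pappalysins PAPPA and PAPPA2 are metalloproteases that cut binding proteins of the insulin-like growth factors (IGFs) and so free the growth factor. PAPPA, made abundantly by human placenta and used as a maternal serum marker, was at RPKM 0.261 for stillborn (0.176 to 0.372), 0.603 for spontaneous abortion (0.499 to 0.723) and 0.534 for the alive library (0.416 to 0.675), from 30, 117 and 70 reads. The stillborn library was lowest and its interval did not overlap the others. The stillborn level was 1.83-fold below the alive library (1.18 to 2.91) and 2.13-fold below the spontaneous abortion (1.41 to 3.29). For spontaneous abortion over alive the ratio was 1.16 (0.856 to 1.58). Under TMM scaling PAPPA was the only member below 1 in both stillborn comparisons by more than counting error. These share the stillborn library, and the share of all genes lower in both is not given here. Of genes with at least 30 reads, 15.1% had a lower ratio for stillborn over alive and 6.46% for stillborn over spontaneous abortion. In the RefSeq table the protein-coding LOC103218947 overlaps PAPPA. It had 3, 46 and 37 reads, low in the same library, and its part in the PAPPA values was not tested.

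PAPPA2 did not follow PAPPA. It was at RPKM 0.161, 0.133 and 0.107, from 33, 46 and 25 reads, and its intervals overlapped in all 3 libraries. The ratio of stillborn over alive was 1.68 (0.970 to 2.95). PAPPA stood 1.62-fold above PAPPA2 in RPKM in the stillborn library, against 4.54-fold and 4.996-fold in the others.

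The genes around the pappalysins differed among themselves. IGFBP4, the substrate of PAPPA, was at RPKM 4.13, 4.04 and 4.49, with intervals that held 1 in all pairs. IGFBP5, which both proteases cut, was at 1.43, 1.68 and 6.68. The alive library was high: IGFBP5 was 4.18-fold lower in the stillborn (3.53 to 4.98) and 3.86-fold lower in the spontaneous abortion (3.39 to 4.41). IGF2, the ligand of fetal growth, was at 34904, 26073 and 18289, and IGFBP2, another binding protein, at 7.40, 5.93 and 6.04. STC1, a stanniocalcin that inhibits the pappalysins, was 6.73-fold higher in the stillborn library than in that of the spontaneous abortion (3.49 to 14), at 0.634, 0.103 and 0.405. PRG2, whose product binds PAPPA in pregnancy serum, was at 0 throughout.

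PGF, the placental growth factor of the VEGF family, was scarce. It was at RPKM 0.227 for stillborn (0.127 to 0.374, 15 reads), 0.0718 for spontaneous abortion (0.0310 to 0.141, 8 reads) and 0.159 for the alive library (0.0823 to 0.278, 12 reads). All 3 intervals overlapped. The scaled ratio of stillborn over spontaneous abortion was 3.44 (1.37 to 9.37), and those over alive held 1. FLT1, the receptor that binds PGF, was higher in the stillborn library, at RPKM 0.167 against 0.0352 and 0.0213, from 62, 22 and 9 reads. This was 8.78-fold over alive (4.34 to 20.1) and 5.17-fold over spontaneous abortion (3.14 to 8.84). The co-receptor NRP1 was at 1.23, 1.47 and 1.54, and the relatives VEGFB and VEGFC were at 17.6, 14.4 and 14.1 and at 1.64, 1.08 and 1.03. KISS1, the precursor of kisspeptins, which in humans are released by syncytiotrophoblast in large amounts, had 0, 3 and 0 reads. Its RPKM of 0.0956 in the spontaneous abortion library lies below what 3 reads give for alive, 0.141, and for stillborn, 0.161, so no fold is given. Its receptor KISS1R was at 0 in all 3 libraries.

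PLAC8, a small cysteine-rich protein of extravillous trophoblast that is also made by leukocytes and epithelia, was lowest in the alive library. Its RPKM was 0.565, 0.655 and 0.384, from 62, 121 and 48 reads. The scaled ratio over alive was 1.75 for spontaneous abortion (1.24 to 2.50) and 1.65 for stillborn (1.11 to 2.45), although with totals in place of TMM the latter was 1.47 with an interval that held 1 (0.993 to 2.19). Leukocyte markers were read beside it. The 10 myeloid markers summed to RPKM 56.6, 10.8 and 15.0, led by FCER1G, an Fc receptor chain, at 20.8, 2.49 and 6.20 and the lysozyme LYZ at 12.0, 4.18 and 4.42. The calprotectin genes S100A8, at 7.11, 0.519 and 0, and S100A9, at 10.2, 2.81 and 1.10, were lowest in the alive library, as PLAC8 was. The receptor genes CD14, at 1.33, 0.165 and 1.44, TYROBP, at 4.39, 0.281 and 1.31, and ITGAM, at 0.310, 0.0103 and 0.142, were lowest in the spontaneous abortion library, where PLAC8 was highest. The 8 lymphocyte markers summed to 3.39, 0.477 and 17.6, nearly all of it from the killer cell genes GNLY at 1.51, 0.256 and 8.84 and GZMB at 1.81, 0.220 and 8.44. NKG7, another killer cell gene of this list, did not share their levels, with 0, 0 and 1 reads, and CD79A had 2, 0 and 7. CD3D, CD3E, CD2 and MS4A1 were at 0 in all libraries. The part of leukocytes in the PLAC8 values was not tested.

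Other genes of trophoblast were read from lists by role. Of 16 transcription factors, 15 had reads and 8, 9 and 8 reached RPKM 1. EOMES was at 0 in all 3 libraries. VGLL1, a TEAD cofactor of human trophoblast, was at RPKM 80.2, 86.7 and 121, and HAND1, a factor of trophoblast giant cells in mice and of amnion and heart, at 81.3, 81.8 and 53.8. MSX2, a homeobox factor, was at 11.7, 14.9 and 20.8. VGLL1 and MSX2 were highest in the alive library and HAND1 lowest, so the abundant factors did not share a direction. ELF5, a factor of trophoblast stem cells and of keratinised and mammary epithelium, had the order of ERVV-2, though 3 libraries allow few orders. It was at 6.69, 2.61 and 0.572, from 195, 128 and 19 reads, 13.1-fold above alive for stillborn (8.15 to 22.2) and 4.68-fold above it for spontaneous abortion (2.88 to 8.02). Of the 12 factors at 30 reads in stillborn over alive, ELF5 alone was apart, beside 7.94% of all genes. Of 13 in spontaneous abortion over alive ELF5 and GATA2 were apart, beside 3.81%, and the GATA2 call rests on 2 alive reads. Of 14 between the losses 0 were apart, beside 4.46%. These calls are too few to set against those shares.

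Of 30 genes for syncytiotrophoblast hormones and secreted proteins, 12 were matched to a row. The CGB, CSH, GH2 and PSG genes were not among them and are not analysed here. Of the 12, CGA, CRH and EBI3 were at 0 in all 3 libraries. The median RPKM of the 12 was 0.0658, 0.151 and 0.119. The 3 that reached RPKM 1 were INHBA, ADAM12 and ENDOU. INHBA, an activin subunit, was at 28.0, 23.5 and 21.8, and ADAM12, a disintegrin protease, at 5.26, 6.42 and 8.32. Both are made in many other cells as well. ENDOU, an endoribonuclease first found in placenta, was at 7.89, 4.33 and 3.98. TFPI2, a protease inhibitor abundant in placenta, was low in the stillborn library, with 2 reads against 44 and 27, which was 12.0-fold below the spontaneous abortion with the wide interval that 2 reads give (3.13 to 102).

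Of the 7 genes of steroid synthesis matched to a row, CYP19A1 (listed as LOC103245629), whose aromatase makes estrogens, was at 0 in all 3 libraries. The other 6 had reads in at least 1. FDX1, the ferredoxin that feeds electrons to mitochondrial cytochromes, was at RPKM 58.3, 41.5 and 45.0, and CYP11A1, which makes pregnenolone (listed as LOC103245339), at 5.25, 3.26 and 4.31. STS, the steroid sulfatase, was at 1.43, 1.23 and 2.79, highest in the alive library. Only 4 of the 7 reached 30 reads in each pair, and 0 of these 4 were apart, beside the 7.94%, 3.81% and 4.46% over all genes. Of 10 extravillous genes matched, FN1, the matrix protein fibronectin made by many cells, led at 28.4, 34.6 and 24.0. ITGA5, the alpha chain of the fibronectin receptor, was 5.29-fold higher in the stillborn than in the alive library (2.85 to 10.6), at 0.393 against 0.0830. ITGA1, another integrin of this list, went the other way, 2.70-fold lower (1.745 to 4.32), from 27 against 93 reads. Of the 5 extravillous genes at 30 reads in stillborn over alive, ITGA5 alone was apart, beside 7.94% of all genes. PRG2 and MMP11 were at 0, and HLA-G was not matched to a row.

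**Figure D4:**
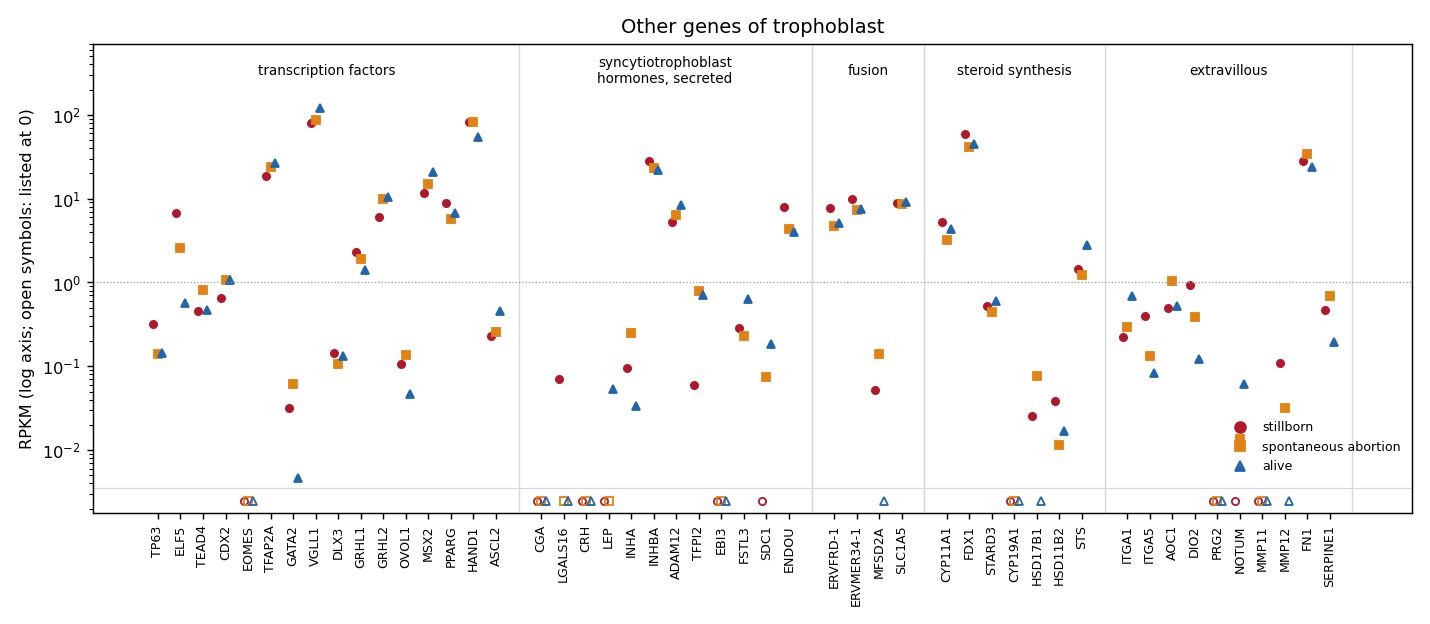
RPKM (log axis) of the other trophoblast genes matched to a row, by role and library, with open symbols for genes listed at 0. The transcription factors VGLL1 and HAND1 lie at RPKM 53.8 or above in each library. Of the 16 factors, 8, 9 and 8 reach RPKM 1 (stillborn, spontaneous abortion, alive) and EOMES is at 0. CGA, CRH, EBI3, CYP19A1, PRG2 and MMP11 of other lists are at 0 as well.

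Markers of other cell types, some of which are also known to express members, were summed for each library. The 9 squamous markers summed to RPKM 905, 512 and 345, which is the order of ERVV-2 and ELF5. With 3 libraries few orders are possible, and the share of all genes with this order is not given here. None of the 9 was at 0. KRT6A, a keratin of oral and wound epithelium, gave most of the stillborn sum, at 588, 254 and 135. SPRR3, a cornified envelope protein of oral epithelium, was at 131, 4.63 and 2.54, CRNN, a protein of the same epithelium, at 41.3, 11.4 and 1.39, and the keratin KRT14 at 31.7, 9.64 and 3.78. IVL and DSG3 had the same order. KRT5, the partner of KRT14, was at 49.1, 151 and 151, and the keratins of moist squamous epithelium KRT4, at 18.04, 29.2 and 18.1, and KRT13, at 24.0, 33.7 and 19.5, were highest in the spontaneous abortion library, so 3 of the 9 did not have that order. The 7 amnion markers summed to 240, 231 and 220. GABRP, a GABA receptor subunit of amnion and other epithelia, was at 210, 197 and 180, VTCN1, an immune checkpoint protein, at 17.5, 18.8 and 29.1, and ITGB6, an epithelial integrin, at 11.5, 14.5 and 10.5. ISL1, a factor of early amnion, was at 0.166, 0.0193 and 0.0606, with a ratio of 9.41 between the losses (4.35 to 23.2). WNT6 of the same list went the other way, at 0, 0.122 and 0.248, from 0, 16 and 22 reads. Between the losses the intervals of CLDN10 and HEY1 held 1.

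The 6 simple epithelial markers had a summed RPKM of 469, 619 and 778, led by KRT19 at 316, 434 and 554, with KRT18, KRT7 and KRT8 in the same order. The adhesion genes went against it, EPCAM at 12.5, 5.69 and 5.97 and CDH1 at 5.73, 6.82 and 4.22. Decidual markers summed to 14.9, 4.55 and 34.0, led by IGFBP1 at 11.0, 1.01 and 30.7, with FOXO1 at 2.43, 2.20 and 1.09 and HAND2 at 1.38, 1.34 and 2.02, and the 6 endothelial markers to 1.19, 1.51 and 1.32 with CDH5 at 0. The part of these cell types in the levels of the trophoblast genes was not tested.

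**Figure D5:**
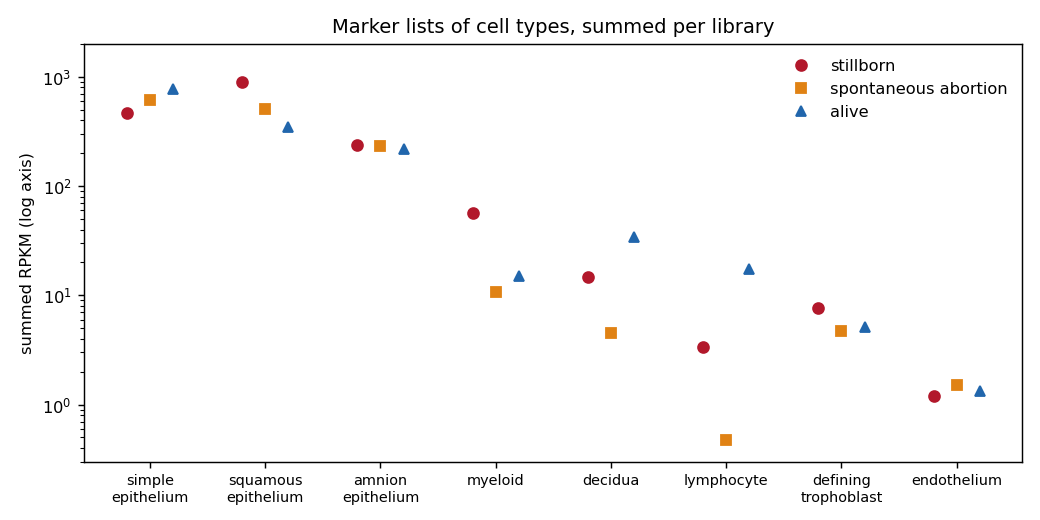
Summed RPKM (log axis) of the marker lists of cell types in the 3 libraries. Squamous markers are highest in the stillborn library at 905, simple epithelial markers in the alive library at 778, and the defining trophoblast markers sum to 7.64, 4.76 and 5.18.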

How the data were processed

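Cell-free RNA of amniotic fluid supernatant was sequenced in 3 libraries, 1 for each status label. Per the submitters' processing notes, bcl2fastq 2.17, STAR and HTSeq were used; genome build, annotation, strand setting and RPKM step: not given in the sources used here. Deposited by the authors were RPKM values only. Since RPKM is reads times a constant over gene length and library total, totals and lengths that are whole were solved for, and 99.98% of 23276 genes above 0 then gave whole reads within the printed digits in lengths up to 400000. A factor common to a gene's reads and length cannot be seen, so reads are lower bounds. They sum to 96.6% to 97.1% of the totals. Levels between genes rest on the authors' lengths.

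Ratios of reads were scaled by TMM (trims of 30% and 5%), with exact Clopper-Pearson 95% intervals, in Python 3.11.15 with numpy 2.4.6 and scipy 1.17.1. A library at 0 was set to 3 reads for a bound. These intervals and floors cover counting error only, as amplified cDNA without molecular identifiers is not independent molecules. The scripts were tested on simulated data. Names not in the files were looked up by gene ID in the RefSeq table of mChlSab1.0.hap1, whose coordinates are not printed. The members and lists were chosen with earlier results of these data known. Named genes are all members and, of each list, those apart in any pair and up to 4 with the highest mean RPKM of at least 1. Genes at 0, neighbours of members and others outside that rule were named after their values were seen. Promoter, protein and other sequences are not used here.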

Additional observations from a re-analysis of the deposited data

How the results depend on the processing

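Counts and medians over the members were recomputed with totals or median-of-ratios in place of TMM, folds of 2 and 8, a minimum of 10 reads, pseudocounts of 0.01 and 1, filters on mean RPKM, and libraries thinned to the smallest total. Of 45 such values, 43 stayed within 1.5 times the count or within the median counting half-width of a member's log2 ratio. The medians ranged from 0.10 to 0.41 for stillborn over alive, from 0.10 to 0.45 for spontaneous abortion over alive and from -0.22 to 0.02 between the losses. These ranges leave out the medians taken from ratios of reads, of which that for stillborn over alive, 0.54, lay above its range. With a minimum of 10 reads, 1 member (ERVV-2) was apart for spontaneous abortion over alive in place of 0, beside 6.97% of all genes. With a fold of 2, 2 members (ERVV-2 and PAPPA) were apart for stillborn over spontaneous abortion in place of 1, beside 15.0% of all genes. Of 50 ratios of single members under other scalings, 1 whose interval excluded 1 reversed: the log2 ratio of GATA3 for stillborn over alive was -0.076 on total assigned reads. That of HTRA4 between the losses, whose interval held 1, went from 0.11 to -0.0097 with the same change. Total scaling shifts every log2 ratio by -0.16 for stillborn over alive and by -0.12 between the losses. With it 4 members in place of 6 had intervals off 1 for stillborn over alive, HTRA4 and PLAC8 being lost, and between the losses TFAP2C was gained, as HTRA4 was with median-of-ratios. KRT4 and, between the losses, HAND1 changed direction with it as well. ERVV-2 was apart over alive and over spontaneous abortion in the stillborn library under every scaling, fold, read minimum and thinning named above. Depth limits GCM1, KISS1 and PGF, with at most 5, 3 and 15 reads in any library. No paired analysis was possible because each status has 1 library.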

Other observations

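The smallest length at which a gene's values give whole reads was longer than the gene's whole genomic span in the RefSeq table of mChlSab1.0.hap1 for 15.6% of the 17583 genes matched by name. For the members these lengths were at least 3839 bases for HTRA4, 2521 for ERVV-2, 7631 for GATA3, 8813 for TFAP2C, 6177 for PLAC8, 6479 for PAPPA, 11560 for PAPPA2, 3377 for GCM1, 3724 for PGF and 1049 for KISS1. The lengths divide out of every ratio between libraries of the same gene, but not out of the order of levels between genes. In reads, which are not divided by length and are lower bounds, PAPPA2 had 33, 46 and 25 and PAPPA 30, 117 and 70. These reads do not order the levels of PAPPA and PAPPA2.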
